A study of Bos grunniens and Bos grunniens x Bos taurus with 6 samples.

Results

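The 9 genes described here encode enzymes that build cholesterol: HMGCS1, MVD, IDI1, FDPS, FDFT1, SQLE, LSS, CYP51A1 and MSMO1. They were chosen by symbol, and all 9 were found among the 26961 features of the deposited matrices. RNA of single cells had been counted as unique molecular identifiers (UMIs, 1 per captured RNA molecule) in 6 droplet libraries of testis. The groups were 1 cattle-yak after sexual maturity, for which the labels give no age, and yak of 6 months (prepubertal, replicates 1 and 2), 18 months (adolescent but before sexual maturity, replicates 3 and 4) and 4 years (after sexual maturity, replicate 5). The cattle-yak, a cross between the cattle and yak species, is known for sterile males. The labels also carry the tag "Germ cell", although the tissue is whole testis and most cells were somatic. The labels do not tie replicates to separate animals, and p-values then reflect the spread among these libraries alone. The cattle-yak and the 4-year yak are 1 library each.

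Cholesterol is made from acetyl units by a chain of enzymes. Early enzymes make mevalonate and turn it into isoprenoid units, FDPS joins these into farnesyl diphosphate, and FDFT1 and SQLE commit the chain to sterols. LSS closes the ring to lanosterol, from which CYP51A1 and then MSMO1 remove methyl groups. In somatic cells these genes are switched on together by sterol-sensing transcription factors when sterol is short. In the testis of mouse and rat, CYP51A1 is known to reach its highest level in haploid germ cells, and its product belongs to the sterols called meiosis-activating.

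Of 40564 barcodes, 29462 passed the filters, between 3672 and 7458 per library, with median depths of 1460 to 2074 UMIs per cell. The smallest library, of the cattle-yak, had 9575446 UMIs in all, and the largest, the 18-month replicate 3, had 24762829. The filter on mitochondrial RNA removed 2.30% of barcodes in the 6-month replicate 1 and 38.0% in the 18-month replicate 3. Cells were clustered without the 9 genes and named from marker lists, which gave 9 classes and left 5 of 39 clusters unnamed. Unnamed cells made up 0.497% to 5.12% of a library except at 4 years, where they made up 7.44%. Spermatid-like cells were found at 4 years alone, 570 cells with all 9 spermatid markers of the files detected. Spermatocyte-like cells numbered 47 in the cattle-yak, 0 and 0 at 6 months, 3 and 16 at 18 months, and 973 at 4 years. The class of spermatogonium-like cells had 69 to 714 cells a library. Cluster 18, which held most of them except at 4 years, was named by a narrow margin. It had 4 of 9 markers raised in the 18-month replicate 4 and none among its 10 top genes. Its lead over the next marker list was 0.214 on the log2 scale, where 0.2 was required. Different clusters held most of a class at different ages: Sertoli-like, endothelial-like and lymphocyte-like cells of the 4-year yak each formed clusters of their own.

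Levels are given as CPM, the UMIs of a gene scaled to 1000000 UMIs of all genes in the same class and library. In all kept cells together the 9 genes had between 27 UMIs (MVD) and 9915 UMIs (FDPS). MVD, which makes the basic isoprenoid unit from mevalonate diphosphate, was at 0 in 23 of the 41 combinations of library and class with at least 50 cells. LSS, with 55 UMIs in all, was at 0 in 18 of them. Neither passed the filter on low counts in any comparison of classes or ages, so no difference in MVD or LSS could be tested at this depth. The other 7 genes were tested wherever their counts allowed.

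**Figure D1:**
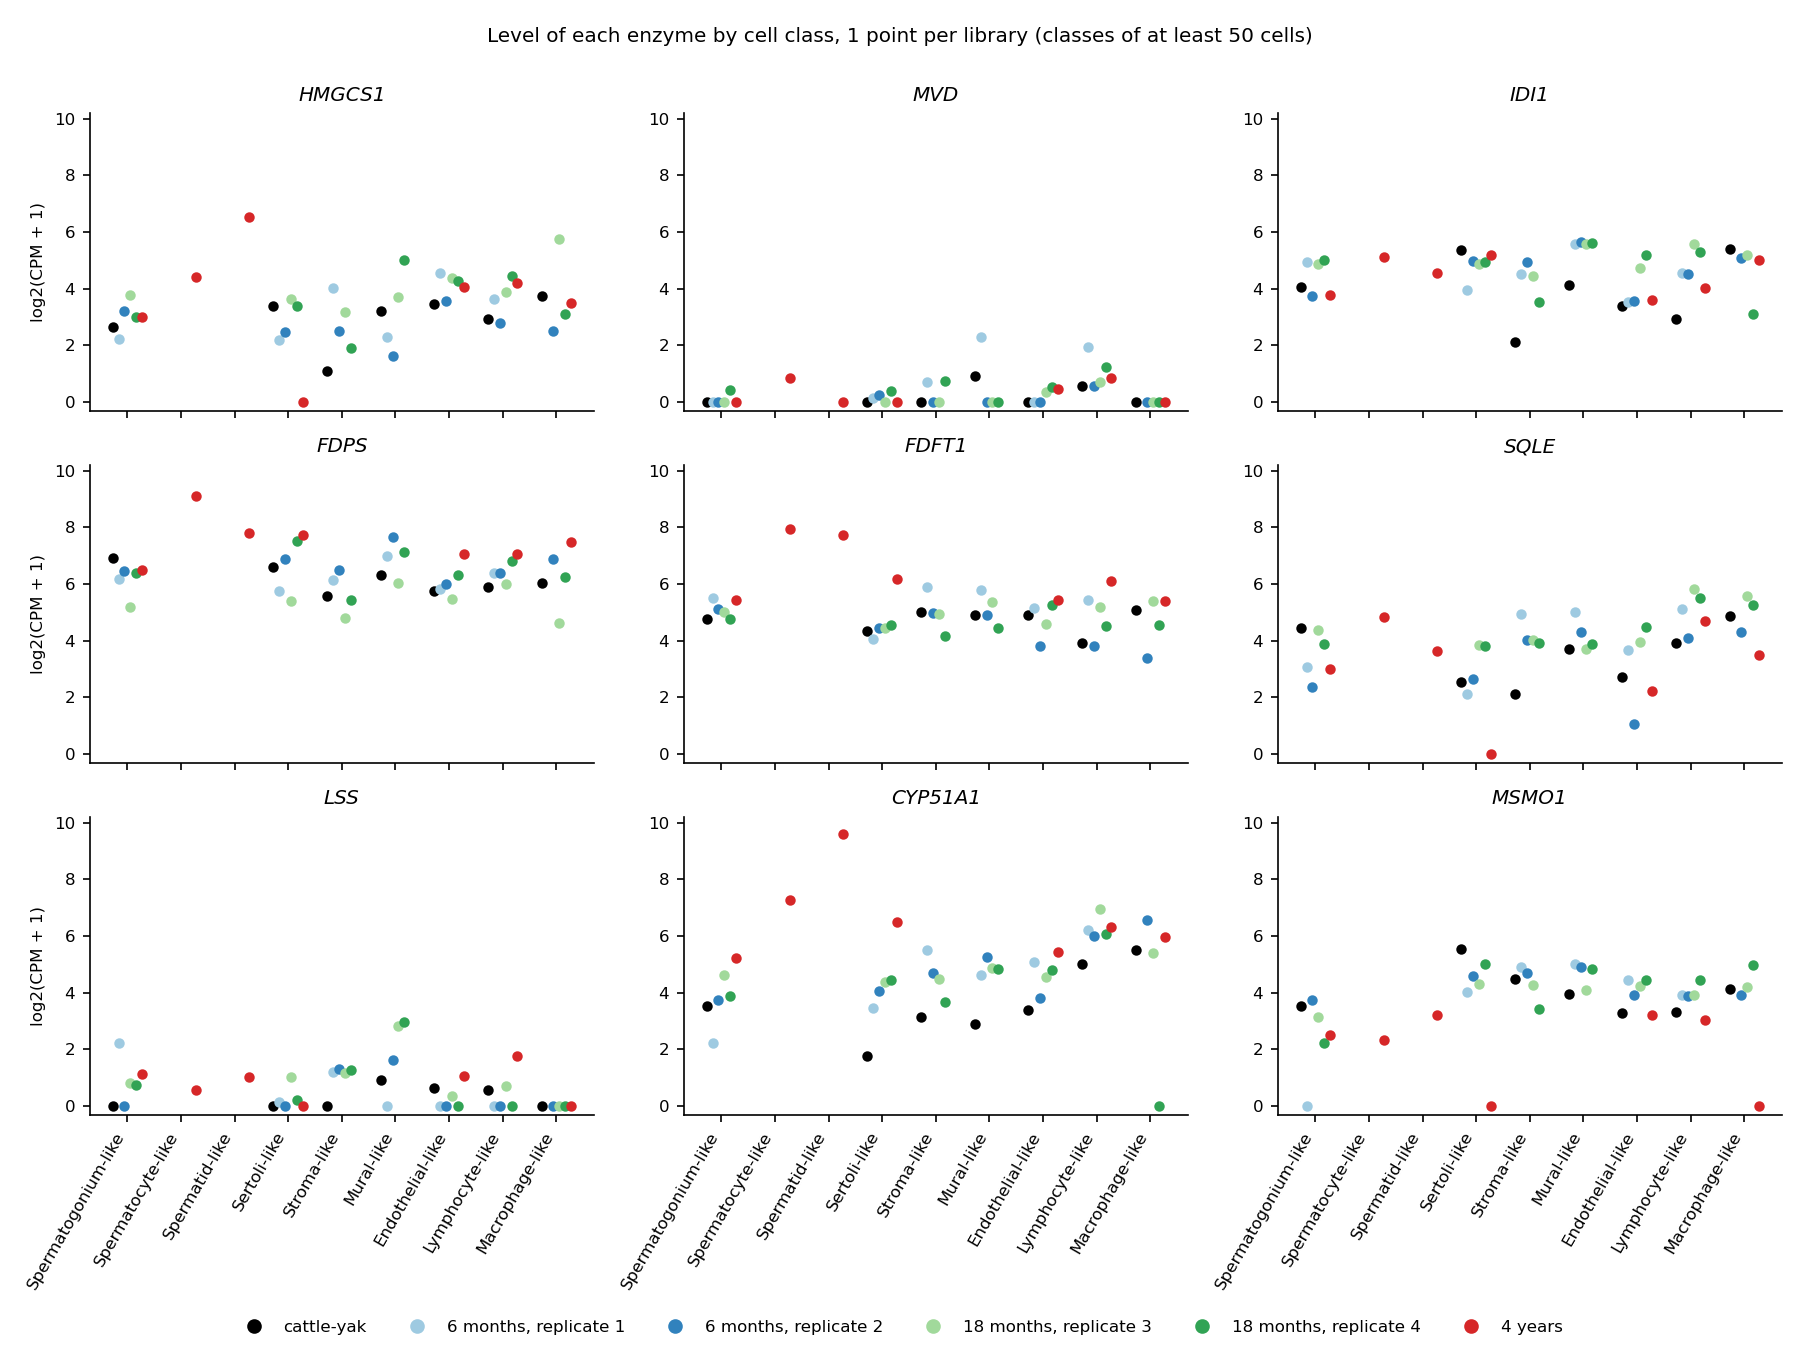
Level of each enzyme as log2(CPM + 1) on the y axis in 9 cell classes on the x axis, 1 point for each library in which the class had at least 50 cells. CYP51A1 stands at 769 CPM in spermatid-like cells of the 4-year yak, and MVD and LSS are at 0 in 23 and 18 of the 41 combinations of library and class.

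CYP51A1, the lanosterol demethylase, was higher at each later germ stage of the 4-year yak. It stood at 36.4 CPM in 211 spermatogonium-like cells, 152 CPM in 973 spermatocyte-like cells and 769 CPM in 570 spermatid-like cells. These levels rested on 31, 943 and 1479 UMIs. The exact 95% Poisson interval of the spermatid level ran between 731 and 809 CPM, and the ratio of spermatids to spermatogonia was 21.1 (exact 95% interval 14.8 to 31.2, counting error only). With 1 library at this age there was no test, and the intervals do not cover the spread between animals. Nor do they cover spermatid RNA in the earlier stages, for which marker values are given below.

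The share of cells with at least 1 CYP51A1 UMI gave the same order. After every cell was thinned to 1000 UMIs, 49.3% of 369 spermatid-like cells had a CYP51A1 UMI (exact binomial 95% interval 44.1 to 54.5), and 201 shallower cells were left out. The share was 11.7% of 785 spermatocyte-like cells and 4.96% of 141 spermatogonium-like cells. Endothelial-like cells of the same library gave 3.41% of 1085 cells, at a median depth of 1358 UMIs against 1408 UMIs in spermatids. The spermatid share lay far above this endothelial share, while the interval of the spermatogonium share (2.02 to 9.96) held it, so a difference between these 2 classes was not detectable by this share. Endothelial-like cells are not free of CYP51A1 RNA themselves: at 6 and 18 months, where their spermatid markers were at 0.00407% of the spermatid level or below, their CYP51A1 was at 1.72% to 4.29% of it. Without thinning, 61.4% of spermatid-like cells, 34.6% of spermatocyte-like cells and 6.75% of endothelial-like cells had a CYP51A1 UMI.

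HMGCS1, which makes the precursor of mevalonate, was also higher at each later stage. It stood at 7.04 CPM in spermatogonia, 20.4 CPM in spermatocytes and 91.5 CPM in spermatids, on 6, 126 and 176 UMIs. Its ratio was 2.89 between spermatocytes and spermatogonia (interval 1.29 to 8.03) and 4.49 between spermatids and spermatocytes (interval 3.55 to 5.69). FDPS peaked in spermatocytes instead. It had 90.4 CPM in spermatogonia, 547 CPM in spermatocytes and 223 CPM in spermatids, and the ratio of spermatids to spermatocytes was 0.407 (interval 0.367 to 0.450). The spermatid level of FDPS depended on the processing: it was 376 CPM with doublets kept and 382 CPM with Leiden resolution 1, beside 513 and 519 CPM in spermatocytes, and 379 CPM with at most 10% mitochondrial UMIs allowed. Spermatocytes thus stayed above spermatids in FDPS, by a smaller factor. The spermatogonium level of FDPS was 170 CPM at the mitochondrial limit of 10%. FDFT1, squalene synthase, was high in both late stages, with 42.3 CPM in spermatogonia, 246 CPM in spermatocytes and 214 CPM in spermatids. Which of the late stages had more FDFT1 depended on the processing. With Leiden resolution 1 the values were 216 CPM in spermatocytes and 279 CPM in spermatids. They were 226 and 281 CPM with at most 10% mitochondrial UMIs allowed, and 214 and 275 CPM with doublets kept.

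The remaining enzymes stayed low. IDI1, the isomerase of the isoprenoid unit, had 12.9 CPM in spermatogonia, 34.0 CPM in spermatocytes and 22.4 CPM in spermatids. SQLE, squalene epoxidase, had 7.04 CPM in spermatogonia, 27.8 CPM in spermatocytes and 11.4 CPM in spermatids. MSMO1, the methylsterol oxidase that acts after CYP51A1, had 4.69, 4.04 and 8.32 CPM on 4, 25 and 16 UMIs. Its ratio of spermatids to spermatogonia was 1.77 with an interval of 0.572 to 7.29, below the interval of CYP51A1. The MSMO1 ratio of spermatids to spermatocytes was 2.06, with an interval (1.03 to 4.01) just above 1. MVD had 0 UMIs in spermatids, which allows up to 1.56 CPM, and LSS had 2.

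Counted over the 9 genes, the interval of the ratio of spermatocytes to spermatogonia lay above 1 for 6 and below 1 for 0, where 28.1% of all genes with at least 20 UMIs in both stages together lay above and 34.7% below. Between spermatids and spermatocytes it lay above 1 for 3 of the 9 and below 1 for 4, where 28.9% of all genes lay above and 48.9% below. The 3 were CYP51A1, HMGCS1 and MSMO1. Among the 4 was FDFT1, whose order turned under the alternatives given above. Between spermatids and spermatogonia it lay above 1 for 4 and below 1 for 0, where 39.2% of all genes lay above and 43.6% below.

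Spermatocyte-like cells fell into 2 clusters at 4 years, and the enzymes differed between them. Cluster 22 (374 cells) had SYCP3, DMC1 and SPO11 raised, genes of early meiotic prophase, and cluster 28 (599 cells) had CCNA1 and AURKA raised, genes of later meiosis. FDPS stood at 89.4 CPM in cluster 22 and 749 CPM in cluster 28. FDFT1 stood at 52.4 and 331 CPM and CYP51A1 at 52.4 and 196 CPM in the same clusters. These 3 genes were therefore near the level of all spermatogonium-like cells together in cluster 22. They were well above it in cluster 28, whose intervals touched neither that level's nor those of cluster 22. FDPS in cluster 22 (interval 76.5 to 104) was below that in spermatogonium cluster 36 (171 CPM, interval 119 to 237). IDI1 ran the other way, with 68.3 CPM in cluster 22 and 18.9 CPM in cluster 28, and SQLE had 34.4 and 24.9 CPM. HMGCS1 was at 16.9 and 21.9 CPM, so its higher level belonged to spermatids.

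**Figure D2:**
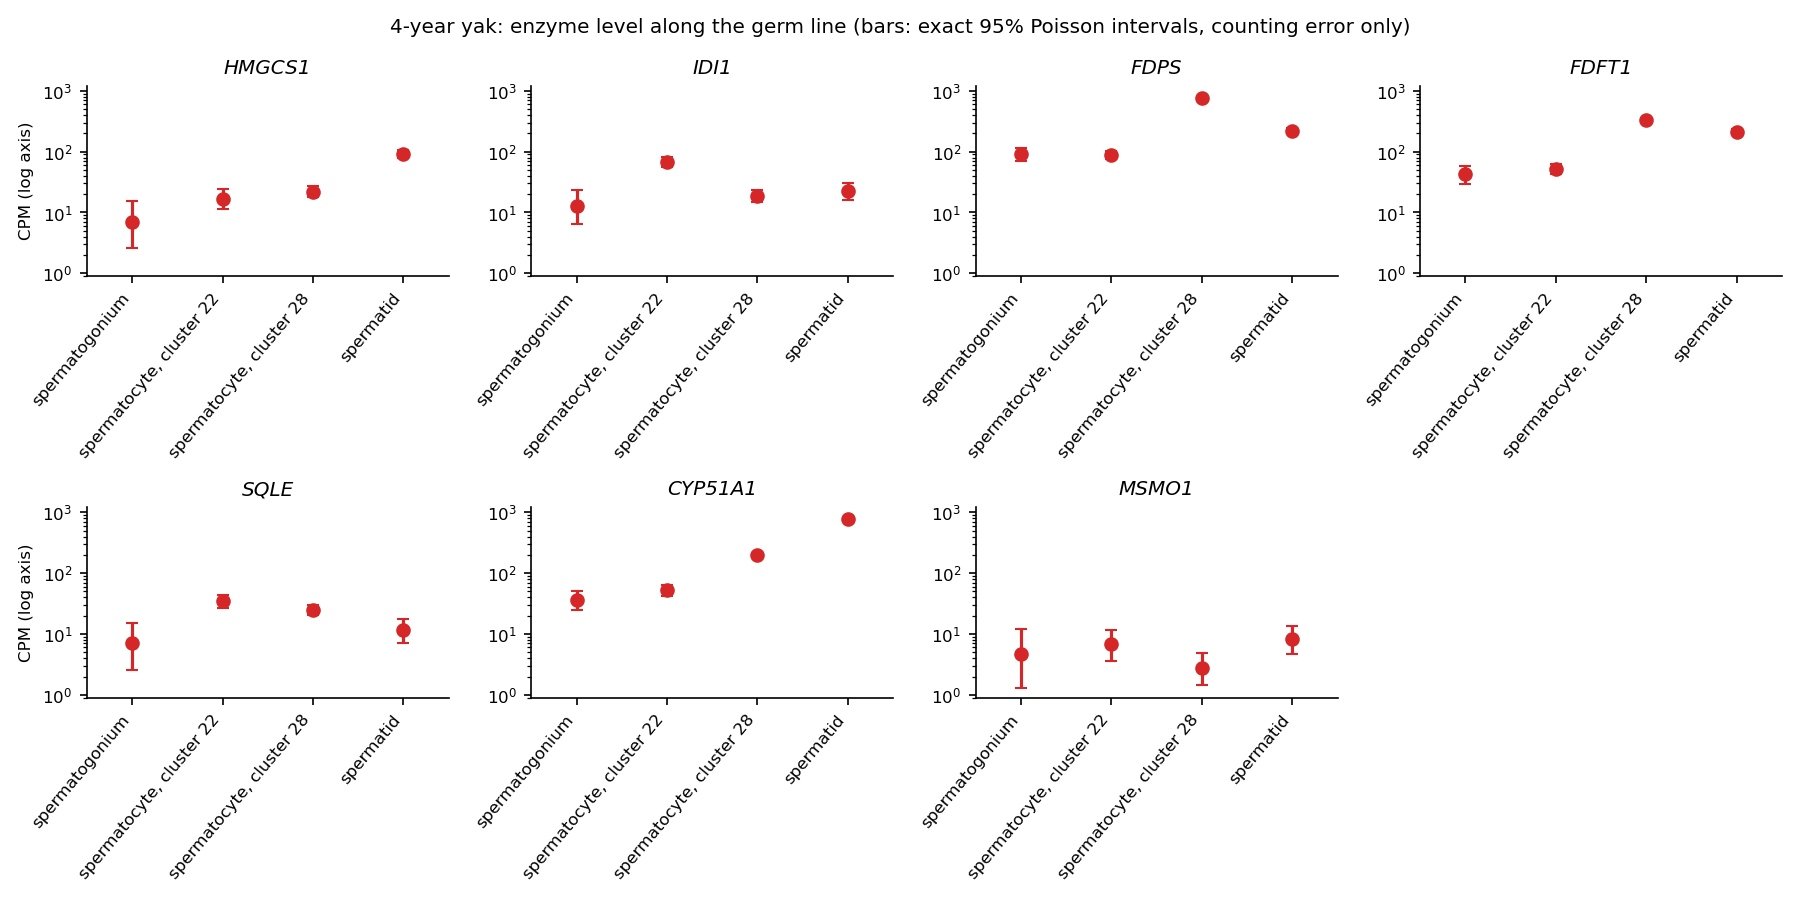
Level of 7 enzymes in the 4-year yak (CPM, log axis) in spermatogonium-like cells, the 2 spermatocyte-like clusters and spermatid-like cells, with exact 95% Poisson intervals of counting error. FDPS and FDFT1 are highest in cluster 28 (749 and 331 CPM), CYP51A1 and HMGCS1 in spermatids (769 and 91.5 CPM), and IDI1 and SQLE in cluster 22 (68.3 and 34.4 CPM).

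The spermatogonium level at 4 years was itself a mixture. Cluster 19, 43 cells with a median of 13516 UMIs, had 27.5 CPM CYP51A1, and cluster 36, 152 cells with a median of 1065 UMIs, had 73.2 CPM on 15 UMIs. Their intervals, 15.7 to 44.7 CPM and 41.0 to 121 CPM, overlapped. Those of FDPS did not: it had 62.0 CPM in cluster 19 (interval 43.4 to 85.8) and 171 CPM in cluster 36 (interval 119 to 237).

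Beside the 9 genes stood 10 other enzymes of the chain that the files hold. Among these, LBR, a sterol reductase that is also a protein of the nuclear envelope, had 56.3 CPM in spermatogonia, 186 CPM in spermatocytes and 22.4 CPM in spermatids. LBR and the genes of the next paragraph were named after their values were seen. Over the 10 enzymes, the interval of spermatids over spermatocytes lay above 1 for 2, below 1 for 3 and included 1 for 3, and 2 had 3 UMIs or fewer. TM7SF2 had 0 UMIs at all 3 stages. Of the 4 electron donors, 0 were higher in spermatids than in spermatocytes and 3 were lower. POR, which hands electrons to CYP51A1 and SQLE, had 5.87 CPM in spermatogonia, 3.23 CPM in spermatocytes and 0 UMIs in spermatids, which allows up to 1.56 CPM.

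A pair of regulators described for haploid germ cells of mouse was measured at the same stages. FHL5, a partner of the transcription factor CREM, had 9.39 CPM in spermatogonia, 5.34 CPM in spermatocytes and 291 CPM in spermatids. CREM had 3.52, 12.1 and 30.2 CPM. All 4 genes of the list of haploid transcription had a spermatid level above that of spermatogonia by interval, where 39.2% of all genes did. Between spermatids and spermatocytes, 2 of the 4 were higher and 2 lower: GTF2A1L had 268 CPM in spermatids and 380 CPM in spermatocytes, and TBPL1 51.5 and 85.0 CPM. In the list of sterol sensing, 3 of 9 genes were higher and 4 lower in spermatids, against spermatocytes as against spermatogonia. Among the higher ones, SREBF2, a transcription factor of the sterol genes, had 56.3 CPM in spermatogonia, 19.1 CPM in spermatocytes and 84.3 CPM in spermatids. INSIG1, which retains that factor when sterol is plentiful, had 62.2, 96.5 and 177 CPM. Among the lower ones, SREBF1, a related factor, had 22.3, 6.95 and 1.56 CPM, and SCAP, which escorts these factors, had 21.1, 22.2 and 4.16 CPM.

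Spermatid RNA was found in every class of the 4-year yak, which bears on the levels of the somatic classes and earlier germ stages in that library. The summed level of 9 spermatid markers in endothelial-like, lymphocyte-like, Sertoli-like and macrophage-like cells was 4.30%, 5.04%, 9.34% and 4.13% of that in spermatids. CYP51A1 in the same classes was at 5.56%, 10.4%, 11.6% and 8.10% of its spermatid level. FDPS was at 59.0% to 96.0% of its spermatid level there. The percentages of both enzymes thus exceeded those of the markers in all 4 classes, and those of FDPS did so by far more. FDPS was higher in spermatocytes (547 CPM) than in spermatids (223 CPM), and free RNA of spermatocytes was not measured. The spermatid markers therefore cannot tell how much FDPS in these classes came from germ cells. In spermatocyte-like and spermatogonium-like cells of the 4-year yak the spermatid markers were at 9.95% and 2.30% of their level in spermatids. CYP51A1 in the same cells was at 19.8% and 4.73% of its spermatid level. How much of that CYP51A1 was spermatid RNA was not tested. In the cattle-yak the spermatid markers were at 0.0102% of their level in spermatids or below in every class. There 9 of 9 were at 0 in Sertoli-like, lymphocyte-like, macrophage-like and spermatogonium-like cells. The part of free germ cell RNA in the differences between these libraries was not tested.

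Cattle-yak testis had less of 6 enzymes than testis of the 4-year yak when all kept cells were summed, and more of 1. CYP51A1 had 17.8 CPM in the cattle-yak, against 196 CPM in the 4-year yak, a ratio of 0.0906 (exact conditional 95% interval 0.0758 to 0.107, counting error only). FDFT1 had 23.2 CPM in the cattle-yak and 160 CPM at 4 years, FDPS 60.5 and 327 CPM, and HMGCS1 7.28 and 27.7 CPM. The differences were smaller for IDI1, with a ratio of 0.761 (interval 0.620 to 0.930), and for SQLE, with a ratio of 0.602 (interval 0.465 to 0.774). MSMO1 ran the other way, with 13.8 CPM in the cattle-yak and 6.37 CPM at 4 years, a ratio of 2.17 (interval 1.62 to 2.90). Of all genes with at least 20 UMIs in both libraries together, 46.1% had an interval below 1 and 28% one above 1. The 4-year library held 570 spermatid-like and 973 spermatocyte-like cells and the cattle-yak 0 and 47, so whole-library levels cannot separate fewer germ cells from less RNA per cell.

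**Figure D3:**
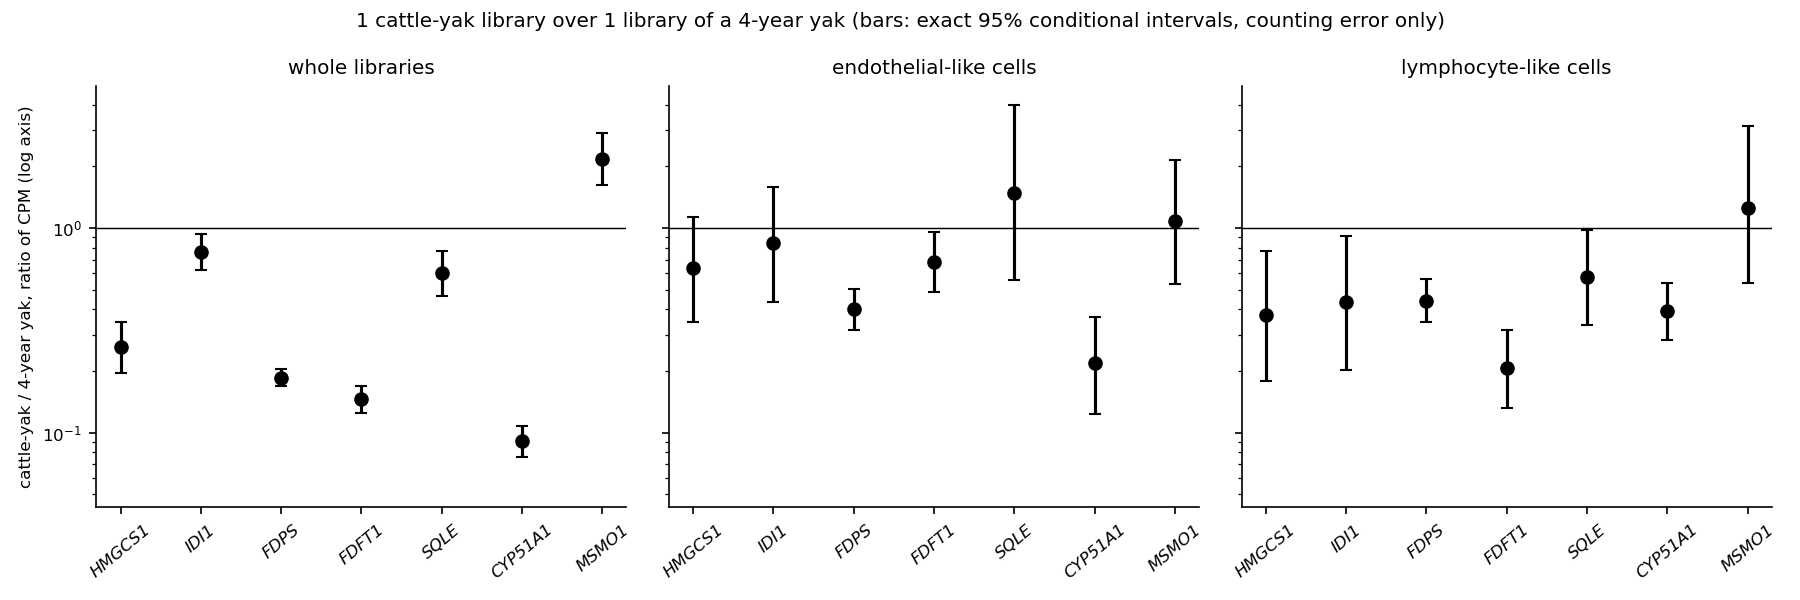
Ratio of CPM in the cattle-yak over the 4-year yak (log axis) for 7 enzymes in whole libraries, endothelial-like cells and lymphocyte-like cells, with exact 95% conditional intervals of counting error. In whole libraries CYP51A1 has the lowest ratio (0.0906), and MSMO1 is the only one of the 7 above 1 (2.17).

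Within classes that both libraries held with at least 50 cells, 0 to 6 enzymes had an interval below 1 and 0 had one above 1. The 6 in lymphocyte-like cells were the same as in whole libraries. In lymphocyte-like cells (1338 in the cattle-yak, 816 at 4 years) the interval lay below 1 for 6 enzymes, where 21.5% of all genes did. CYP51A1 there had 31.1 CPM in the cattle-yak and 79.7 CPM at 4 years, and FDFT1 had 14.1 and 68.5 CPM. The others were FDPS (58.0 and 131 CPM), HMGCS1 (6.60 and 17.5 CPM), IDI1 (6.60 and 15.1 CPM) and SQLE (14.1 and 24.7 CPM). In endothelial-like cells (567 and 1527) it lay below 1 for 3 enzymes, where 30.7% of all genes did: CYP51A1 (9.39 CPM in the cattle-yak, 42.7 CPM at 4 years), FDPS (53.6 and 133 CPM) and FDFT1 (29.3 and 42.7 CPM). FDPS also stood lower in macrophage-like cells (65.4 and 177 CPM), where 13.4% of all genes did and 12.7% had an interval above 1. FDPS and CYP51A1 stood lower in Sertoli-like cells, where 16.5% of all genes did. In macrophage-like and Sertoli-like cells FDPS alone among the enzymes had the 20 UMIs that genes in these shares needed. The Sertoli-like values at 4 years rested on 12 UMIs of FDPS and 5 of CYP51A1, from 68 cells. That class depended on the clustering: at Leiden resolution 1 it held 2 cells at 4 years. The classes lay mostly in different clusters in the 2 libraries, for lymphocyte-like cells cluster 2 in the cattle-yak and 32 at 4 years, for endothelial-like cells clusters 5 and 33, and for Sertoli-like cells clusters 16 and 37. Macrophage-like cells were the exception, with cluster 9 holding all of them in both libraries.

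Spermatogonium-like cells, the germ cells of which both libraries had at least 50, showed 0 enzymes whose interval excluded 1. Of all genes with at least 20 UMIs in both libraries together, 14.3% had an interval below 1 and 9.13% one above 1. Among the enzymes FDPS, FDFT1 and CYP51A1 alone had that many UMIs, and 2 of the 9 had 3 or fewer. The count of 0 therefore cannot be set against these shares. FDPS had 120 CPM in 81 cells of the cattle-yak and 90.4 CPM in 211 cells of the 4-year yak, a ratio of 1.33 (interval 0.795 to 2.14). Cluster 18 held most of them in the cattle-yak and cluster 36 at 4 years. CYP51A1 had 10.4 CPM on 2 UMIs in the cattle-yak and 36.4 CPM on 31 UMIs at 4 years, a ratio of 0.287 (interval 0.0333 to 1.13). With at most 40% mitochondrial UMIs allowed, or with Leiden resolution 1, the interval lay below 1 for 1 enzyme. The 47 spermatocyte-like cells of the cattle-yak, 46 of them in cluster 22, had 58.1 CPM CYP51A1, 46.4 CPM FDPS and 128 CPM IDI1. In cluster 22 the cattle-yak had 58.2 CPM CYP51A1 (interval 35.6 to 89.9) and the 4-year yak 52.4 CPM (interval 42.6 to 63.8), so in that cluster a difference in CYP51A1 was not detectable at this depth. For 3 other enzymes the intervals in cluster 22 did not touch. IDI1 was higher in the cattle-yak, with 128 CPM (interval 93.1 to 172) against 68.3 CPM (interval 57.0 to 81.1) at 4 years. FDPS was lower, with 46.6 CPM (interval 26.6 to 75.7) in the cattle-yak and 89.4 CPM (interval 76.5 to 104) at 4 years, and so was FDFT1, with 20.4 CPM (interval 8.19 to 42.0) and 52.4 CPM (interval 42.6 to 63.8). The cattle-yak values rest on 46 cells of 1 library. The share of all genes whose intervals did not touch in cluster 22 is not given here, so these 3 enzymes have no background.

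Among somatic cells and spermatogonia, each enzyme had its own order of classes, and most neighbours in these orders overlapped in their range over libraries. CYP51A1 was highest in lymphocyte-like cells, with a median of 69.9 CPM and a range of 31.1 to 122 CPM over 6 libraries. With all these classes counted, lymphocyte-like cells had the highest CYP51A1 in 3 of 6 libraries and macrophage-like cells in 2 of 5. Leaving out macrophage-like cells, which are few, lymphocyte-like cells had the highest CYP51A1 in 5 of 6 libraries. The exception was the 4-year yak, where 5 UMIs in 68 Sertoli-like cells gave 89.0 CPM. Macrophage-like cells came next with a median of 45.0 CPM (0 to 93.8 CPM in 5 libraries), then mural-like cells (27.6 CPM), endothelial-like (24.7 CPM), stroma-like (21.5 CPM), Sertoli-like (17.7 CPM) and spermatogonium-like cells (13.2 CPM). The ranges of each of these neighbours overlapped. SQLE had close medians in lymphocyte-like cells (29.3 CPM) and macrophage-like cells (28.6 CPM, range 10.4 to 47.0 CPM). Lymphocyte-like cells had the highest SQLE of these classes in 4 of 6 libraries and macrophage-like cells in 2 of 5.

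IDI1 was highest in mural-like cells, the contractile cells of vessels and tubule walls. It had a median of 46.8 CPM there and led in 4 of 5 libraries, and it was lowest in endothelial-like cells (11.1 CPM). FDPS had medians of 125 CPM in mural-like cells and 106 CPM in Sertoli-like cells, and its lowest median was in stroma-like cells (47.2 CPM), the fibroblast-like cells between tubules. HMGCS1 had its highest median outside the late germ line in endothelial-like cells (17.0 CPM) and its lowest in stroma-like cells (4.63 CPM). FDFT1 had medians between 20.9 and 32.7 CPM in all 7 of these classes, so it hardly separated them. MSMO1 had medians of 14.0 to 27.6 CPM in the 6 somatic classes and 6.22 CPM in spermatogonium-like cells, where it was the lowest class in 4 of 6 libraries.

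The difference between spermatogonium-like and stroma-like cells was tested within 5 libraries. Of 7 enzymes tested, 0 were higher and 3 were lower in spermatogonia at an adjusted p below 0.05 in edgeR, where 26.1% of all 10866 genes were called higher and 34.3% lower. With 3 of 7 called, the share of enzymes was close to this background. Of the 3, MSMO1 alone was also called with library totals in place of the trimmed-mean scaling (TMM). Its levels were 10.4 CPM in spermatogonia and 21.4 CPM in stroma of the cattle-yak, and at 6 months 0 and 12.5 CPM in spermatogonia against 29.3 and 24.9 CPM in stroma. At 18 months they were 7.74 and 3.71 CPM in spermatogonia against 18.2 and 9.78 CPM in stroma. MSMO1 was thus lower in spermatogonia in 5 of 5 libraries, with a log2 fold change of -2.39 ± 0.44 (SE; edgeR adjusted p = 5.91e-05), or -1.47 with library totals (edgeR adjusted p = 0.00705).

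CYP51A1 and FDFT1 were the others called lower in spermatogonia, by -1.40 ± 0.45 (edgeR adjusted p = 0.0102) and -0.92 ± 0.33 (edgeR adjusted p = 0.0192). Neither held with library totals, where CYP51A1 had -0.44 (edgeR adjusted p = 0.388) and FDFT1 turned to 0.07 (edgeR adjusted p = 0.831). This scaling moved the median of all genes by 0.95 on the log2 scale. In CPM, CYP51A1 was lower in spermatogonia in 2 of 5 libraries, both of 6 months: 3.72 and 12.5 CPM in spermatogonia against 45.0 and 25.1 CPM in stroma. Without the 6-month replicate 1, CYP51A1 had -0.88 (edgeR adjusted p = 0.0793) and FDFT1 -0.72 (edgeR adjusted p = 0.103). Without the cattle-yak, SQLE was called lower as well (-1.24, edgeR adjusted p = 0.0126). FDFT1 was not called at the mitochondrial limits of 10% and 40% or with doublets kept (edgeR adjusted p = 0.183, 0.105 and 0.168), nor was CYP51A1 at 40% (edgeR adjusted p = 0.0528). HMGCS1, IDI1 and FDPS were not called, at -0.40, -0.37 and -0.47 (edgeR adjusted p = 0.525, 0.456 and 0.205).

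Set against stroma-like cells, Sertoli-like cells, which nurse germ cells in the tubule, had more of 3 enzymes under TMM and of 0 under library totals. The 3 were FDPS (log2 fold change 1.43 ± 0.27, edgeR adjusted p = 0.000935), IDI1 (1.36 ± 0.33, edgeR adjusted p = 0.00447) and MSMO1 (0.98 ± 0.28, edgeR adjusted p = 0.0113). Of all 10685 genes, 25.1% were called higher and 27.2% lower. FDPS had 95.5 CPM in Sertoli-like cells and 47.2 CPM in stroma of the cattle-yak. At 6 months it had 53.0 and 117 CPM in Sertoli-like cells against 69.9 and 88.3 CPM in stroma, and at 18 months 41.7 and 181 CPM against 27.0 and 42.6 CPM. FDPS was thus higher in Sertoli-like cells in 4 of 5 libraries, with the 6-month replicate 1 as the exception. With library totals its log2 fold change was 0.72 (edgeR adjusted p = 0.0905), and the median of all genes moved by -0.76. IDI1 then had 0.66 (edgeR adjusted p = 0.221) and MSMO1 0.27 (edgeR adjusted p = 0.567). MSMO1 in CPM was higher in Sertoli-like cells in 3 of 5 libraries, both 6-month libraries being the exceptions. Its call was lost without the library as a block (0.96, edgeR adjusted p = 0.0560), with doublets kept (0.74, edgeR adjusted p = 0.0707) and at the mitochondrial limit of 10% (0.62, edgeR adjusted p = 0.170). At that limit IDI1 was not called (1.02, edgeR adjusted p = 0.0553) and SQLE was called lower (-1.18, edgeR adjusted p = 0.0193). Without the 6-month replicate 1, HMGCS1 was called as well (1.55, edgeR adjusted p = 0.0162).

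Set against Sertoli-like cells in 6 libraries, spermatogonium-like cells had less of 4 enzymes, where 34% of all 8767 genes were called higher and 19.6% lower. MSMO1 was lower by -2.91 ± 0.49 (edgeR adjusted p = 0.000113) and by -1.92 with library totals (edgeR adjusted p = 0.00537). In CPM it was lower in spermatogonia in 5 of 6 libraries. The exception was the 4-year yak, with 4.69 CPM in spermatogonia and 0 UMIs in 68 Sertoli-like cells. At Leiden resolution 1 that library had 2 Sertoli-like cells. FDPS (-1.33 ± 0.30, edgeR adjusted p = 0.00143), IDI1 (-1.25 ± 0.35, edgeR adjusted p = 0.00665) and CYP51A1 (-1.28 ± 0.40, edgeR adjusted p = 0.0135) were called under TMM alone. With library totals they had -0.37 (edgeR adjusted p = 0.317), -0.26 (edgeR adjusted p = 0.583) and -0.36 (edgeR adjusted p = 0.470), and the median of all genes moved by 1.03. Without the library as a block, CYP51A1 had -1.13 (edgeR adjusted p = 0.0676), and without the 18-month replicate 4 it had -1.20 (edgeR adjusted p = 0.0735). Without the 4-year library, HMGCS1 (-1.37, edgeR adjusted p = 0.0167) and FDFT1 (-0.78, edgeR adjusted p = 0.0496) were called as well, and HMGCS1 also without the cattle-yak (-1.20, edgeR adjusted p = 0.0468).

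**Figure D4:**
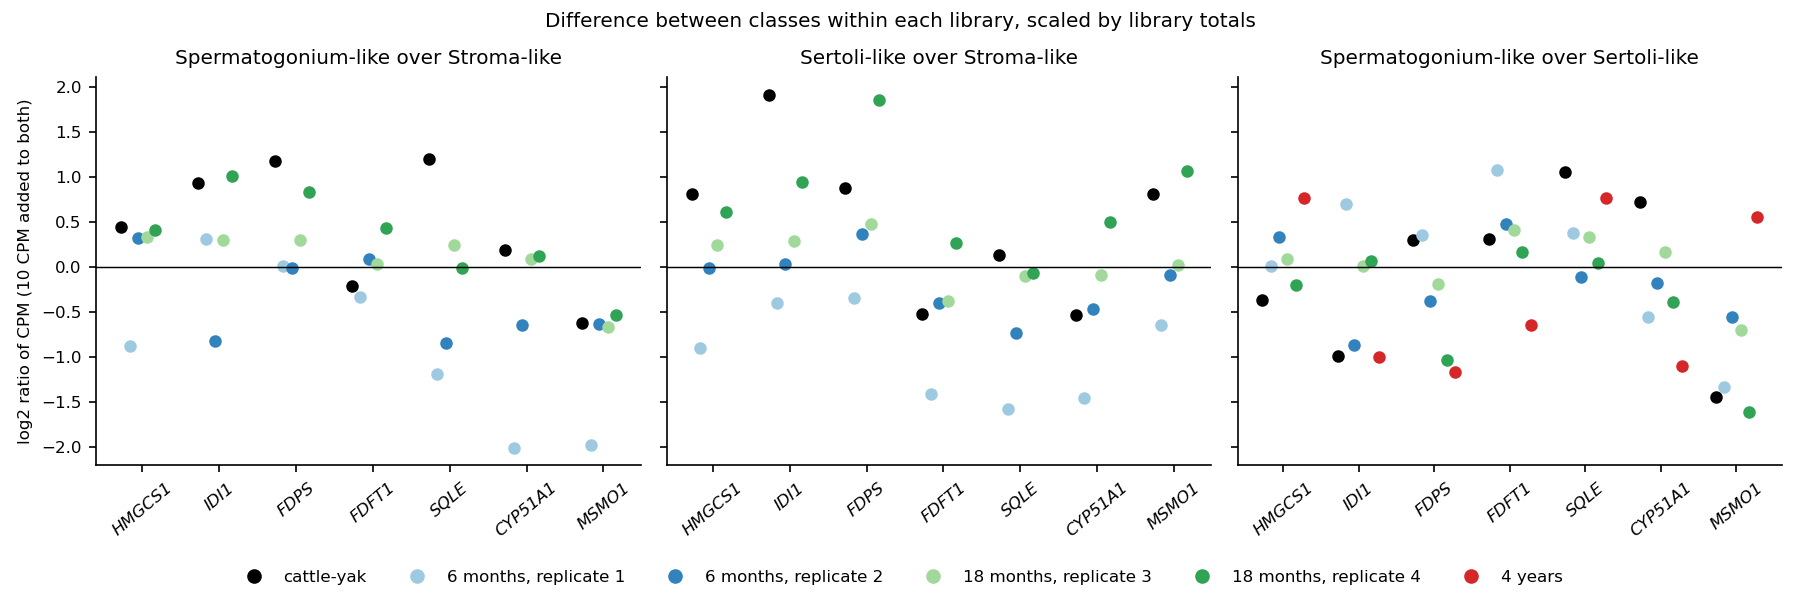
Log2 ratio of CPM between 2 classes of the same library (10 CPM added to both, scaled by library totals) on the y axis for 7 enzymes on the x axis, 1 point per library, in 3 panels. MSMO1 lies below 0 in 5 of 5 libraries for spermatogonium-like over stroma-like cells and in 5 of 6 for spermatogonium-like over Sertoli-like cells.

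Other genes of sterol handling also differed between these classes. Between spermatogonium-like and stroma-like cells, 4 of the 6 tested genes of cholesterol efflux and storage were lower in spermatogonia and 0 higher. Among them was APOE, the apolipoprotein that carries sterol between cells (-5.82 ± 0.35, edgeR adjusted p = 3.08e-12). Of 6 tested genes of uptake and transport, 2 were lower and 1, VLDLR, was higher (2.53 ± 0.65, edgeR adjusted p = 0.00176). Of 9 genes of sterol sensing, 5 were lower and 1, INSIG1, was higher (2.17 ± 0.39, edgeR adjusted p = 4.34e-05). APOE, VLDLR and INSIG1 were called with library totals too. Of 6 other tested enzymes of the chain, 2 were lower, HSD17B7 (-2.75 ± 0.56, edgeR adjusted p = 0.000169) and SC5D (-1.39 ± 0.40, edgeR adjusted p = 0.00453), and SC5D was not called with library totals (edgeR adjusted p = 0.309).

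Between Sertoli-like and stroma-like cells, 1 of 6 other tested enzymes of the chain was higher in Sertoli-like cells and 0 were lower. With library totals that call was lost and HSD17B7, SC5D and LBR were called lower (edgeR adjusted p = 0.0226, 0.00332 and 0.0409). Of 4 genes of steroid synthesis, 2 were higher in Sertoli-like cells and 0 lower: FDXR, a donor of electrons in mitochondria (2.13 ± 0.29, edgeR adjusted p = 0.000111), and CYP11A1, which cuts the cholesterol side chain (1.70 ± 0.62, edgeR adjusted p = 0.0357; 0.88 with library totals, edgeR adjusted p = 0.191).

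No enzyme passed the threshold for a difference between 18 and 6 months in any class. With edgeR and with DESeq2, 0 of 5 enzymes were called in mural-like cells and 0 of 7 in the other 5 classes tested and in whole libraries. Of all genes, edgeR called 4.41% in spermatogonium-like cells, 2.74% in whole libraries, 1.48% in Sertoli-like and 0.932% in stroma-like cells, 0.354% in mural-like and 0.342% in endothelial-like cells, and 0.216% in lymphocyte-like cells. At an unadjusted edgeR p below 0.05 there were 6 enzymes in stroma-like cells, 2 in whole libraries, 2 in endothelial-like cells, 1 in lymphocyte-like cells and 0 in each of the Sertoli-like, mural-like and spermatogonium-like classes. Of all genes tested, 1074 of 9224 were below it in stroma-like cells, 3140 of 13573 in whole libraries and 403 of 7309 in endothelial-like cells. The counts were 283 of 5548 in lymphocyte-like, 2013 of 8836 in Sertoli-like, 353 of 3387 in mural-like and 1837 of 8838 in spermatogonium-like cells. Macrophage-like cells were not tested, since the 6-month replicate 1 had 23 of them. On simulated counts these edgeR fits called 0% to 7.42% of genes with a 2-fold change. Age differences of that size would therefore mostly be missed.

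Stroma-like cells came closest to an age difference. CYP51A1 had 21.5 and 11.9 CPM in stroma at 18 months, against 45.0 and 25.1 CPM at 6 months. MSMO1 had 18.2 and 9.78 CPM at 18 months, against 29.3 and 24.9 CPM at 6 months, and FDPS had 27.0 and 42.6 CPM against 69.9 and 88.3 CPM. The ages did not overlap for 6 of 7 enzymes in stroma, HMGCS1 being the exception. The share of all genes whose ages did not overlap in stroma is not given here, so this count has no background. The fitted log2 fold changes of all 7 lay between -1.03 and -1.54, with edgeR adjusted p-values of 0.151 (MSMO1) to 0.445 (HMGCS1), so none passed. The median of the 7 was -1.35 under TMM and -0.91 with library totals, beside a median of all genes of 0.04 and 0.48. Without the 18-month replicate 4, 6 of the 7 were called, where 19.3% of all genes were, and the lone 18-month library is then assumed to vary like the 6-month pair. Without the filter on low counts 4 of 9 enzymes were called, where 2.47% of all genes were. In that replicate 985 of 1231 stroma-like cells belonged to cluster 11, while 1545 of 1679 in replicate 3 belonged to cluster 15, and at 6 months cluster 14 was the leading one, with 1528 of 4353 and 1094 of 2453 cells.

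**Figure D5:**
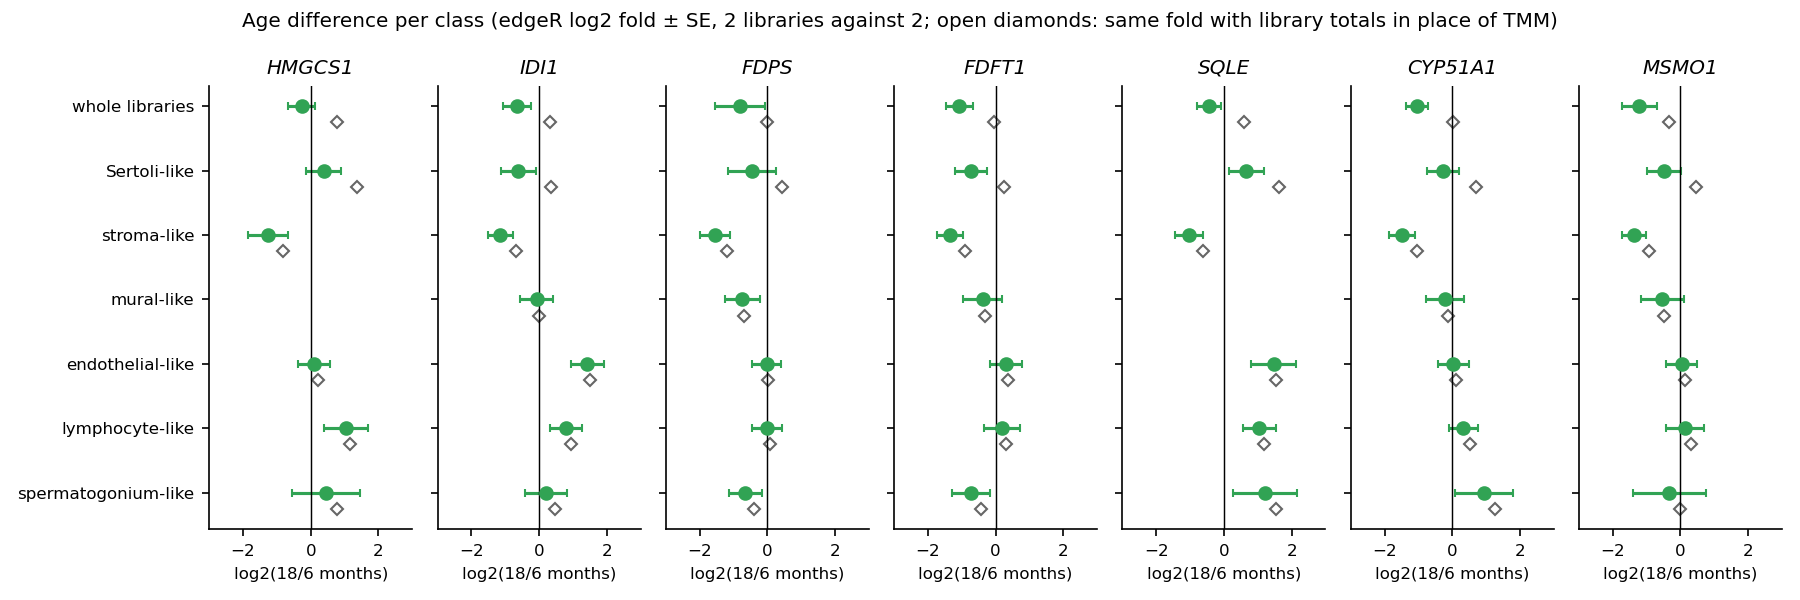
Log2 fold change of 18 over 6 months with its SE for 7 enzymes in whole libraries and 6 classes (edgeR, 2 libraries against 2); open diamonds give the same value with library totals. In stroma-like cells all 7 lie below 0 (-1.03 to -1.54, 0 called), and in endothelial-like and lymphocyte-like cells SQLE lies above 0 (1.47 and 1.05, not called).

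Whole libraries gave a direction that depended on the scaling. Under TMM all 7 enzymes lay below 0 at 18 months with a median of -0.81, and with library totals the median was 0.02, a shift of 1.08 in the median of all genes. FDPS had 39.9 and 123 CPM in the 18-month libraries, against 62.7 and 102 CPM in the 6-month ones, which overlap. Without the 18-month replicate 4, FDPS (-2.44, edgeR adjusted p = 0.0288) and MSMO1 (-2.12, edgeR adjusted p = 0.0247) were called, where 14.5% of all genes were. In Sertoli-like cells, 5 of 7 lay below 0 under TMM, with a median of -0.46, and the median with library totals was 0.45. FDPS in Sertoli-like cells had 41.7 and 181 CPM at the later age, against 53.0 and 117 CPM at the earlier one. Without the 18-month replicate 4 it was called lower (-2.29, edgeR adjusted p = 0.0124), with the 161 cells of replicate 3 alone at 18 months. FDPS was called lower without that replicate in mural-like (-1.60, edgeR adjusted p = 0.0214) and spermatogonium-like cells (-1.48, edgeR adjusted p = 0.0261) as well.

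SQLE was the 1 enzyme of 7 whose age effect differed between Sertoli-like and stroma-like cells by the test of that difference. In Sertoli-like cells it had 13.6 and 13.0 CPM at 18 months, against 3.33 and 5.29 CPM at 6 months. In stroma-like cells it had 15.2 and 14.0 CPM at 18 months, against 29.5 and 15.4 CPM at 6 months. The age effect in Sertoli-like minus that in stroma-like cells was 1.65 ± 0.49 on the log2 scale (edgeR adjusted p = 0.0212), where 6.29% of all 11189 genes were called. DESeq2 did not call it (1.52, adjusted p = 0.317). With at most 10% mitochondrial UMIs allowed the difference was 0.49 (edgeR adjusted p = 0.846), without the 6-month replicate 1 it was 0.89 (edgeR adjusted p = 0.533), and without either 18-month replicate it was not called (edgeR adjusted p = 0.155 and 0.168). Without the 6-month replicate 2, 3 enzymes were called, where 1.72% of all genes were. With library totals all 7 differences were called, at 1.20 to 2.30, where 17.4% of all genes were, under a shift of 0.60 in the median of all genes. In endothelial-like cells SQLE had 14.7 and 21.6 CPM at 18 months, against 11.9 and 1.10 CPM at 6 months, and in lymphocyte-like cells 56.4 and 44.1 CPM against 33.9 and 15.9 CPM.

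IDI1 in endothelial-like cells had 25.8 and 35.5 CPM at 18 months, against 10.6 and 11.0 CPM at 6 months. The ages did not overlap, and the log2 fold change was 1.42 ± 0.49 (edgeR adjusted p = 0.468), called without the 18-month replicate 3 (1.79, edgeR adjusted p = 0.0220). SQLE there was called without the 6-month replicate 1 (3.87, edgeR adjusted p = 0.0439), which leaves 1 UMI at 6 months. CYP51A1 in spermatogonium-like cells had 23.7 and 13.8 CPM at 18 months, against 3.72 and 12.5 CPM at 6 months, on 1 and 3 UMIs at 6 months (0.94 ± 0.86, edgeR adjusted p = 0.566). Of the neighbouring lists, in whole libraries 1 of 4 genes of steroid synthesis was lower at 18 months, CYP11A1 (-4.16 ± 0.47, edgeR adjusted p = 0.0303), and no other listed gene was called in any age comparison.

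Likeness of pattern was described over sums of a library and class. Over the 41 sums of a library and class, Pearson correlations of log2(CPM + 10) between pairs of the 7 measurable enzymes ranged between -0.36 and 0.61 with a median of 0.25 over 21 pairs. These sums share 6 libraries and differ in depth, so the values describe them and carry no test. Of 4836 genes outside the lists with a mean of at least 20 CPM, those whose pattern was most like the mean of the 9 were ENSBGRG00000022014 (r = 0.58), FAM134B (0.57), ITGA4 (0.55), ENSBGRG00000004178 (0.55) and NUDT5 (0.53). For CYP51A1 alone the 5 most alike were ARRDC5 (r = 0.77), ENSBGRG00000008394 (0.76), ZBTB45 (0.76), ENSBGRG00000022014 (0.75) and ACRV1 (0.72), the last a protein of the acrosome.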

How the data were processed

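Per the labels' protocols, frozen testis was thawed, digested to single cells and kept in culture medium before counting. The deposited matrices hold raw UMI counts per gene and barcode, not normalized by the authors. The file headers name Cell Ranger 5.0.0, whereas the submitters' processing notes name version 2.1.1. Their genome build was not given in the sources used here. No coordinates or sequences are therefore reported, and symbols are those of the files. Deposited barcodes had 500 UMIs or more, and pairs of libraries shared 5 to 16 barcodes.

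A cell needed 300 genes and no more than 20% of its UMIs from 37 mitochondrial features. Scrublet (expected rate 0.06) ranked cells as doublets, and the top 0.8% per 1000 barcodes were dropped. Cells were clustered in scanpy 1.11.5 (10000 UMIs as target, 2000 variable genes, 30 components, 15 neighbours, Leiden resolution 2 in igraph 0.11.9, seed 0), with the 9 enzymes and the listed pathway genes (63 genes in all) kept out of the variable genes. A cluster was named from 13 marker lists by comparing it with the other clusters of the same library: at least 3 markers and 0.333 of the list raised 2-fold (10 CPM added) in at least 2% of cells. The thresholds for naming were set after the clusters were seen. Names rebuilt this way may differ from the submitters' own.

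Counts were summed per library and class with at least 50 cells and tested with edgeR 4.0.16 (quasi-likelihood, TMM, filterByExpr, Benjamini-Hochberg over all genes, threshold 0.05; R 4.3.3), with the library as a block between classes and DESeq2 1.42.0 as an alternative. The cattle-yak and 4-year libraries were compared by CPM with exact 95% Poisson and conditional intervals, with 3 counts as the floor of a count of 0. Intervals and floors cover counting error only. Counts of the 2 replicates of an age differed beyond sampling noise (chi-square over its degrees of freedom: 57.1 for 6 months, 219 for 18 months). Each fit was tested on 3 sets of simulated counts with 2-fold and 4-fold changes put in. The age fits called 0% (Sertoli-like) to 7.42% (endothelial-like) of the 2-fold changes and 6.99% to 66.2% of the 4-fold changes. The class comparisons called 16.6% to 34% and 84.8% to 93.7%, and the difference of age effects 7.47% and 48.6%. False calls made up 0% to 7.26% of all calls.

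The rule was to name the 9 enzymes in the comparisons, and those given no value in one did not pass its test. Genes of 8 neighbouring lists are named where they passed a test, at most 4 for each list and comparison by smallest p, or where they stood highest or lowest in their list, and other names are marked. The genes and lists were chosen with earlier results of these data known. ACAT2, EBP, FNTA, FNTB, STARD4, HSD3B1, CYP17A1 and HSD17B3 of the lists were not used here. Some listed genes enter the counts of their lists and are not reported here by name.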

Additional observations from a re-analysis of the deposited data

Results flagged for a closer look

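The difference between spermatogonium-like and stroma-like cells stood apart in the 6-month replicate 1 for 2 enzymes, as a log2 ratio of CPM with 10 CPM added. For MSMO1 it was -1.98 there, and between -0.67 and -0.53 in the other 4 libraries. For HMGCS1 it was -0.88 there, and above 0 in the other 4 libraries. The 69 spermatogonium-like cells of that library held 0 UMIs of MSMO1 and 1 of HMGCS1. Of 21 such groups examined 2 were marked, and chance marks about 1 in 20.

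The age effect on SQLE differed between Sertoli-like and stroma-like cells by 1.65 on the log2 scale in edgeR, with the limits given in the report.

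In the following pairs of classes, both 18-month libraries lay on one side of both 6-month libraries in the first class and on the opposite side in the second. These differences were not tested. Each value is the difference between the classes in the log2 ratio of 18 over 6 months, with 10 CPM added. For IDI1 it was -1.44 in stroma-like minus endothelial-like cells and -1.18 in stroma-like minus lymphocyte-like cells. For SQLE it was -1.17 in stroma-like minus endothelial-like, -1.19 in stroma-like minus lymphocyte-like and -1.16 in stroma-like minus spermatogonium-like cells. For CYP51A1 it was -1.42 in stroma-like minus spermatogonium-like cells. For MSMO1 it was -0.82 in stroma-like minus lymphocyte-like and -0.52 in mural-like minus lymphocyte-like cells.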

How the results depend on the processing

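The alternatives were library totals in place of TMM, the size factors of DESeq2, DESeq2 itself, no filter on low counts, no library block, each library left out, 10% or 40% as the mitochondrial limit, doublets kept and Leiden resolution 1. Of the values of single enzymes under them, 816 kept their direction or stayed uncalled, 24 lost their call, 42 gained one and 1 turned: FDFT1 in spermatogonium-like over stroma-like cells, 0.0739 with library totals. MSMO1 in spermatogonium-like cells was called against stroma-like and Sertoli-like cells under each alternative that gave a value (adjusted p at most 0.00705 and 0.00537). It had none at the mitochondrial limit of 10%, where it did not pass the filter on low counts. The cause of the other changes was not tested.

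No paired analysis was possible because the ages, the 4-year yak and the cattle-yak share fewer than 2 replicate numbers. Between classes the library was the block, and without the replicate block the counts of enzymes called stayed within 1.5 times.

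Enzymes called for age went to 1 in whole libraries and 4 in stroma-like cells with no filter on low counts. With each library left out, the called enzymes numbered 0 to 2 for age in whole libraries, 0 to 6 in stroma-like cells, 0 to 1 in Sertoli-like, endothelial-like, mural-like and spermatogonium-like cells, 1 to 4 in spermatogonium-like over stroma-like cells, 3 to 4 in Sertoli-like over stroma-like, 3 to 6 in spermatogonium-like over Sertoli-like and 0 to 3 for the age effect in Sertoli-like minus stroma-like cells. With library totals the called enzymes numbered 1, 0 and 1 in the 3 class comparisons in that order and 7 for the difference of age effects. Spermatogonium-like over stroma-like cells gave 1 at either mitochondrial limit. The difference of age effects gave 0 in DESeq2, 0 at the limit of 10%, 2 at 40% and 4 with doublets kept. In spermatogonium-like cells of the cattle-yak over the 4-year yak, 1 enzyme lay below 1 at the limit of 40% and at Leiden resolution 1.

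CYP51A1 in spermatids was 613 CPM at the limit of 10%, 591 CPM with doublets kept and 605 CPM at Leiden resolution 1, and in spermatocytes 135, 131 and 132 CPM. The spermatid share was 43.1% at Leiden resolution 1 and 33.7% with cells thinned to 500 UMIs.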
